A study of Mus musculus with 18 samples.

Results

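The gene set described here is p53 with its best-known target genes, 32 genes chosen by symbol. It holds the p53 gene itself (Trp53) and its inhibitor Mdm2. The others were grouped by function: 6 under cell cycle arrest, 13 under apoptosis, 4 under DNA repair and 7 under metabolism and stress. All 32 were found among the 24116 genes of the count table, and all 32 were among the 14901 genes that passed the filter on low counts. PolyA RNA-seq of 18 libraries measured them in mouse embryonic stem cells (ES cells) of strain 129S6/SvEvTac, kept in serum with the cytokine LIF. The groups were wild type (8 libraries), Snf2h ko (5 libraries), Snf2h ko with wild-type Snf2h added back (3 libraries) and Snf2h ko with mutant Snf2h added back (2 libraries). Snf2h, the product of Smarca5, is the motor subunit of ISWI remodellers, complexes that use ATP to shift nucleosomes along DNA and set their spacing. Both add-back lines carry the ko as well, and the protocol names the mutant as an ATPase mutant. The ko and mutant add-back lines had been grown on embryonic fibroblast feeders for at least the first passages after thawing, and the other lines on gelatin. Neither the promoter of the add-back construct nor the number of clones behind each line is given in the labels.

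p53 is a transcription factor that is held low by Mdm2, a ubiquitin ligase that marks it for degradation and is itself a p53 target, so the pair form a negative feedback loop. DNA damage and other stresses stabilise the p53 protein, which then activates genes that halt the cell cycle, repair DNA, adjust metabolism or kill the cell. ES cells are known for abundant p53 and for a short G1 phase. p53 activity is set largely at the protein level, which RNA-seq does not measure.

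p53 binds a response element made of a pair of 10-base elements, each with a CNNG core. Promoter windows of 250 bases before to 50 bases after each annotated start, taken from RefSeq (GRCm38.p6), were available for 24 of the 32 genes and were searched for such pairs on both strands, with at most 2 mismatches in all, intact cores and a spacer of at most 13 bases. The 6 genes with a match are printed to show what the letters of these promoters hold, with the paired elements in capitals and 6 flanking bases on each side. Each sequence is given on the strand of its gene.
Cdkn1a, chr17:29090900-29090943, plus strand: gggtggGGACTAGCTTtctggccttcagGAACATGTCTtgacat
Ccng1, chr11:40755456-40755487, minus strand: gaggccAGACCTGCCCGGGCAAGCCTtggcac
Gtse1, chr15:85859939-85859970, plus strand: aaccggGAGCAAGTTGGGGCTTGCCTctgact
Bax, chr7:45467073-45467105, minus strand: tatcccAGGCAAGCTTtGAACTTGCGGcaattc
Ckap2, chr8:22185997-22186028, minus strand: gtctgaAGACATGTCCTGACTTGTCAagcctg
Sesn1, chr10:41887247-41887281, plus strand: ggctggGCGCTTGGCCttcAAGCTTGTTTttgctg

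The Cdkn1a pair had 0 mismatches and began 73 bases before the start, with 12 bases between its elements. The Ccng1 and Gtse1 pairs had 1 mismatch each, and the Bax, Ckap2 and Sesn1 pairs had 2. The Sesn1 match lay beside an alternative start within the gene, and the Gtse1 match lay across an alternative start within its gene. Such a pair was present for 25% of the matched genes and for 4.71% of the 27025 genes with a window, and a pair without mismatch for 0.074% of the latter. A match describes the letters only, and the other 18 genes are simply those without these letters in this window. Of the 6 genes, Cdkn1a, Ccng1, Ckap2 and Sesn1 rose in the ko, as given below, while Gtse1 and Bax did not pass the test. Of all 32 genes 17 rose, as did 26.8% of all genes tested, and a link between match and rise was not tested.

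The libraries held 15.3 to 37.0 M counts (M for mega) and fell into a low set (15.3 to 19.0 M; 3 wild-type, 3 ko and all add-back libraries), a middle set (22.9 to 25.3 M; 2 wild-type and 2 ko libraries) and a high set (31.0 to 37.0 M; 3 wild-type libraries). These sets were defined from the totals and are not groups of the study. Wild-type or ko libraries within the low or the middle set differed by a chi-square of 1.48 to 2.55 per gene, against 38.6 to 56.3 between these sets. The 3 wild-type libraries of the high set differed among themselves by 15.9 to 40.8 per gene, so that set was not homogeneous. Within the low set, the wild-type add-back libraries differed among themselves by 2.09 to 6.72 per gene and the 2 mutant add-back libraries by 14.0. No label ties a library to its own culture, so p-values measure the spread between these libraries, which may be partly technical. Smarca5 was at 139.7 to 216 CPM (the read count scaled to library size) in wild type, 8.72 to 10.1 in the ko, 83.8 to 90.2 with wild-type add-back and 48.4 to 68.6 with the mutant, and no library went against its label.

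In wild-type ES cells the levels of the 32 genes, scaled to exon length and library size (RPKM), spanned from below 1 to above 200. Trp53 was the most abundant transcript at 215 ± 39.2 RPKM (SD, n = 8), followed by the pore-forming death protein Bax at 149 ± 13.3. Gtse1 at 84.6 ± 14.8, Ccng1 at 65.1 ± 15.2 and Ei24 at 60.3 ± 4.11 came next. Neither Gtse1 and Ccng1 nor Ccng1 and Ei24 were separated beyond their spread, while the lowest library of Gtse1 (72.2 RPKM) lay above the highest of Ei24 (67.2 RPKM). At the other end, the secreted stress factor Gdf15 was at 1.41 ± 0.649 RPKM and the death receptor Fas at 0.131 ± 0.0949.

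Loss of Snf2h went with higher transcripts of many p53 targets and a lower Trp53 transcript. Of the 32 genes, 17 rose and 2 fell in the ko against wild type at an adjusted p under 0.05 (edgeR's quasi-likelihood test). Over all genes tested 55% were called, 26.8% higher and 28.2% lower, so the share of the 32 genes called at all lay near that background and the counts differed in their direction. The median log2 fold change of the 32 genes was 0.47, against -0.01 over all genes tested. By function, 5 of 6 arrest genes, 7 of 13 apoptosis genes, 1 of 4 repair genes and 3 of 7 metabolism genes rose. All 5 ko libraries lay above all 8 wild-type libraries for 8 of the 32 genes and below them for 1, where 14.1% and 15.4% of all genes tested did so.

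**Figure D1:**
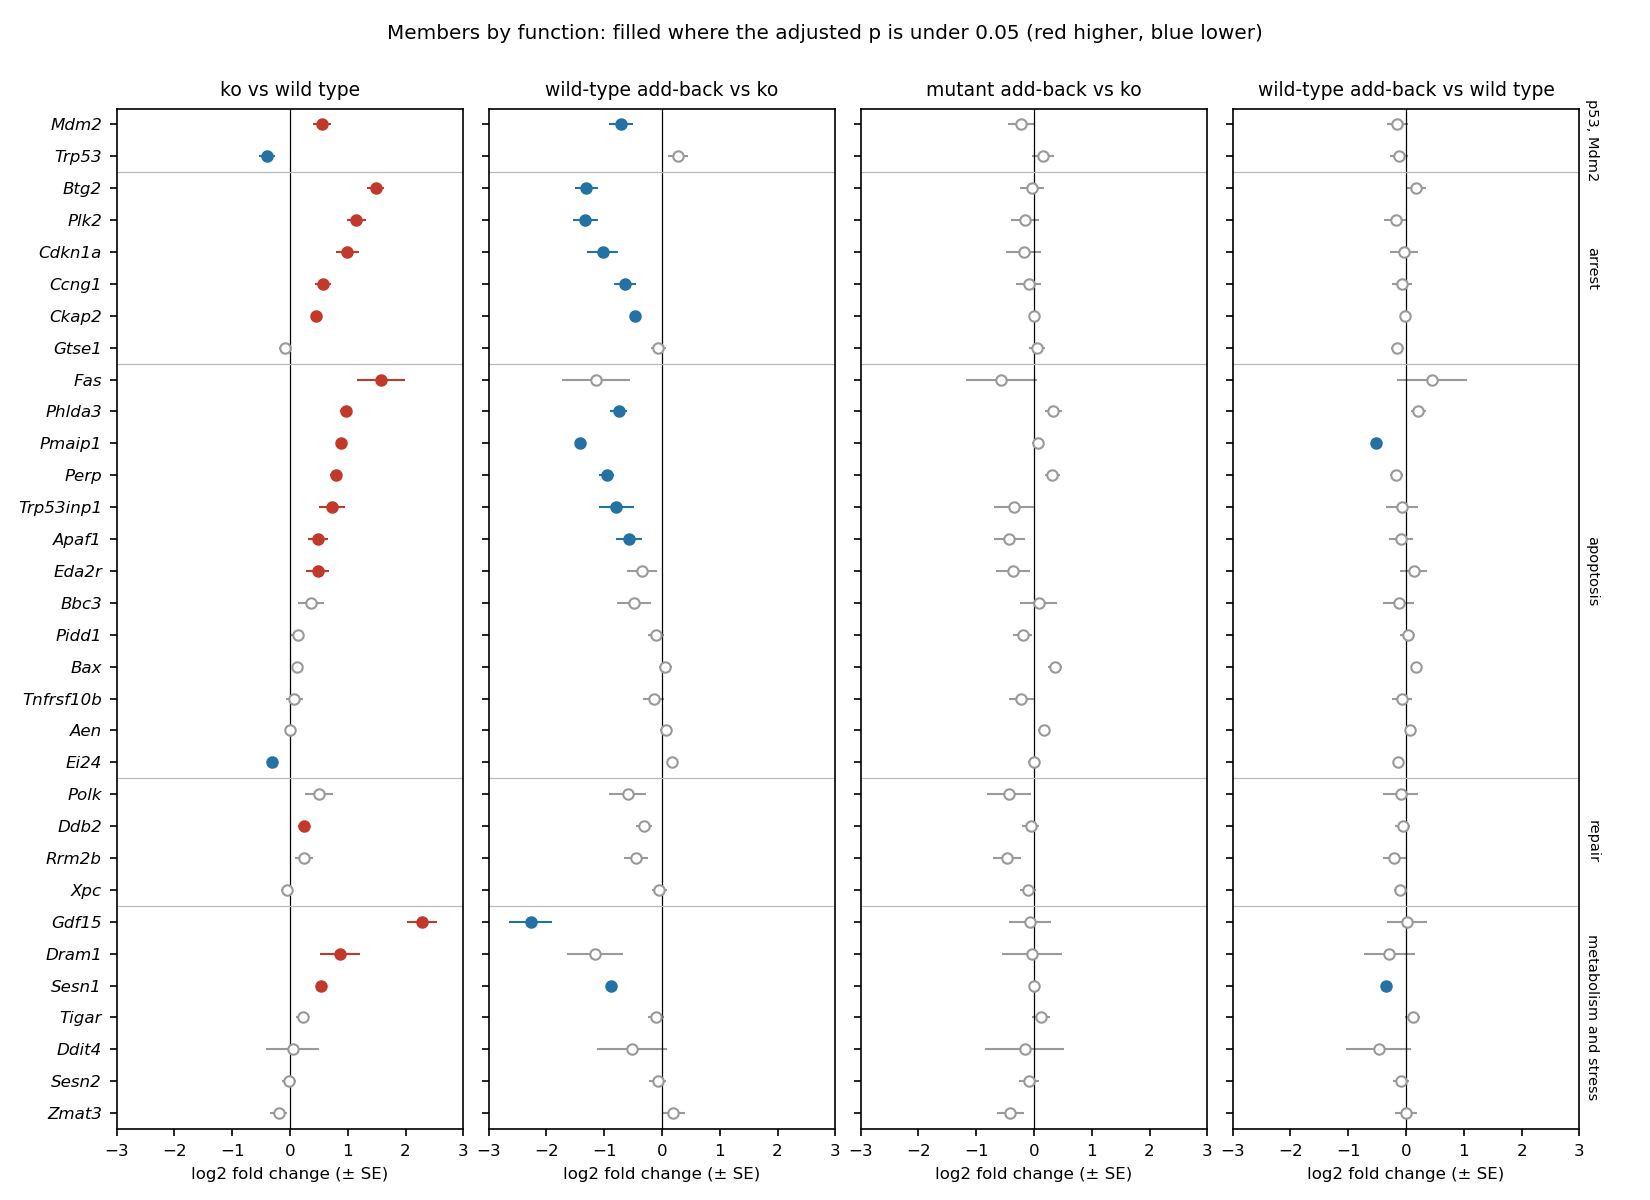
Log2 fold change with its standard error (x axis) for the 32 genes (y axis, grouped by function) in 4 comparisons, one per panel; filled points have an adjusted p under 0.05, red for higher and blue for lower. In the ko 17 genes were higher and 2 lower, after wild-type add-back 13 were lower than in the ko, and no point is filled for the mutant add-back against the ko.

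The p53 gene and its inhibitor moved in opposite directions. The Trp53 transcript ranged from 409 to 687 CPM in wild type with a median of 520.4, and was at 288, 302, 447, 442 and 444 CPM in the ko libraries. The ko values overlapped the lower wild-type values, and the lowest were those of the middle set. Trp53 fell by 0.40 on the log2 scale (SE 0.13, adjusted p = 0.016). That call was lost without ko replicate 1 (-0.31, adjusted p = 0.055) or without ko replicate 2 (-0.32, adjusted p = 0.054). Mdm2 was at 264, 261, 151, 152 and 148 CPM in the ko against 109 to 159 in wild type with a median of 128. It rose by 0.56 (SE 0.15, adjusted p = 0.0043), with overlapping libraries, and both ko libraries of the middle set stood above all others.

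The genes grouped under arrest rose, apart from Gtse1. Cdkn1a encodes p21, the inhibitor of cyclin-dependent kinases that carries out p53-dependent G1 arrest. It was at 30.7 to 67.4 CPM in wild type (median 47.1) and at 124, 129.8, 66.0, 66.0 and 68.4 CPM in the ko. The ko libraries of the low set lay within the upper wild-type range but above the 3 wild-type libraries of their own set, which were at 30.7 to 32.6 CPM. The log2 fold change of Cdkn1a was 0.99 (SE 0.20, adjusted p = 0.00041).

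Btg2, an antiproliferative regulator of transcription and mRNA decay, was at 42.9 to 81.2 CPM in wild type (median 54.8) and at 189.9, 204, 123, 132 and 134 CPM in the ko. No ko library overlapped the wild type, and the difference was 2.79-fold (log2 1.48, SE 0.14, adjusted p = 7.7e-08). Plk2, a polo-like kinase induced by p53, was at 26.5 to 55.5 CPM in wild type (median 32.8) and at 98.1, 99.9, 64.4, 65.6 and 64.2 CPM in the ko, again without overlap (2.22-fold, adjusted p = 8.4e-06). Smaller rises were those of Ccng1, the cyclin G1 gene (1.49-fold, adjusted p = 0.0024), and Ckap2, a spindle protein gene (1.37-fold, adjusted p = 4.8e-06). Gtse1, whose product binds p53 and microtubules, had a log2 fold change of -0.09 (SE 0.10, adjusted p = 0.45).

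**Figure D2:**
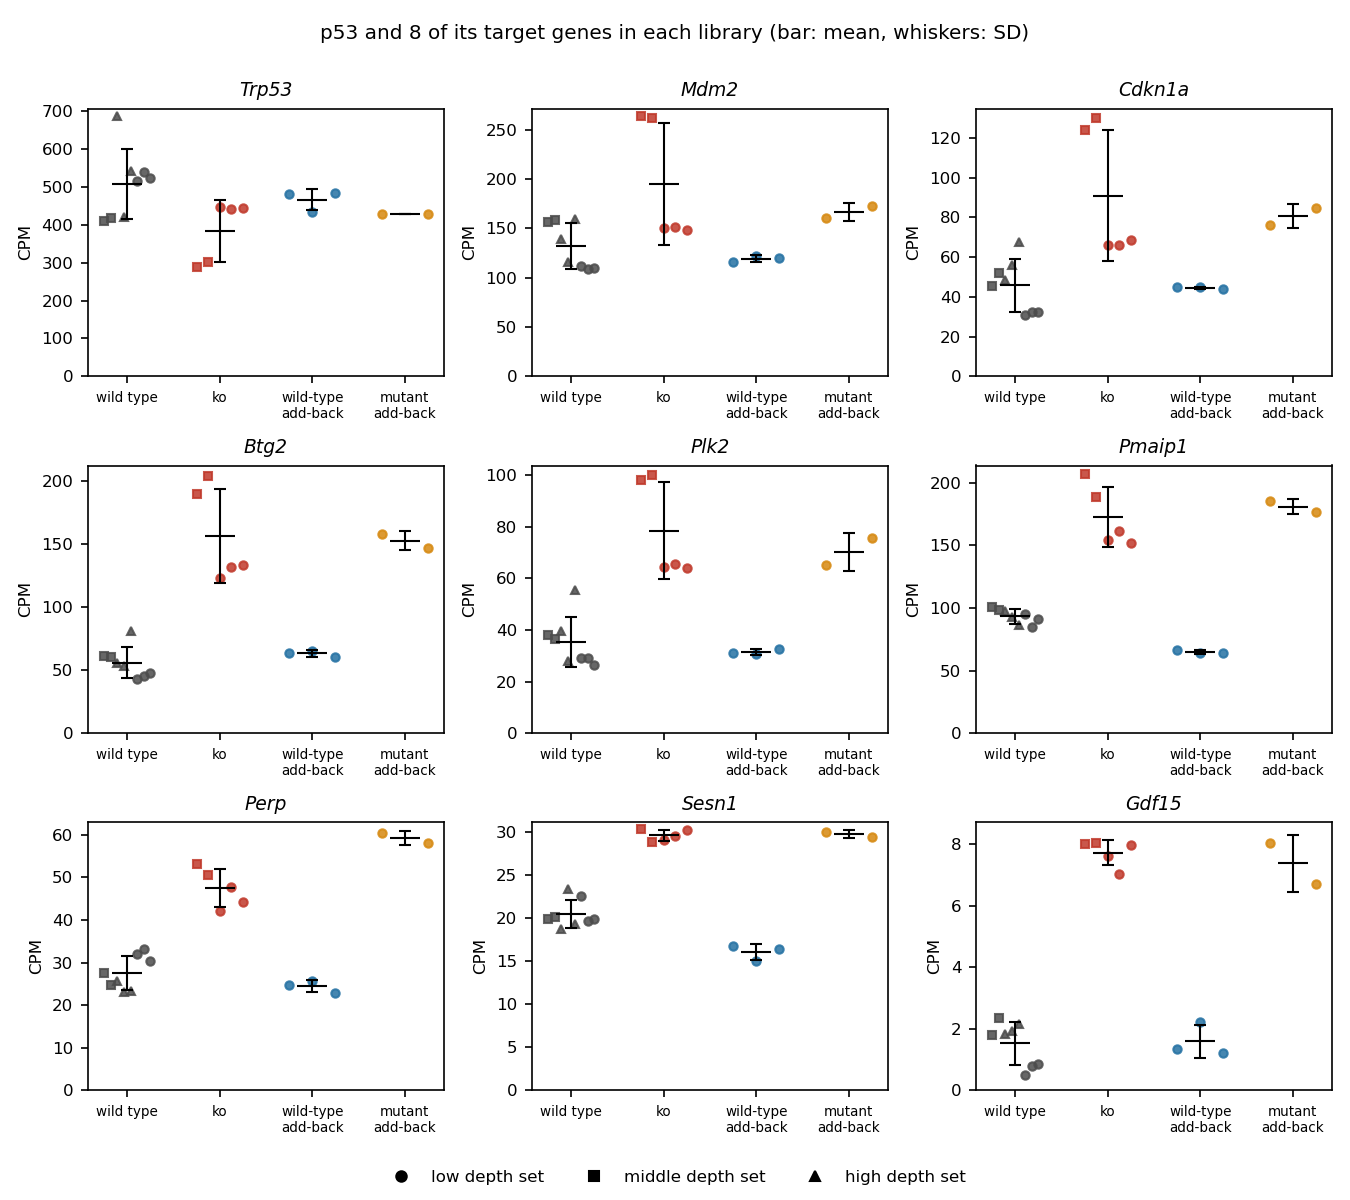
Normalised level in CPM (y axis, from 0) of Trp53 and 8 target genes in each library, by group (x axis); point shapes give the depth set, and the bar and whiskers give mean and SD. Btg2, Plk2, Pmaip1, Perp, Sesn1 and Gdf15 lie higher in every ko and mutant add-back library than in every wild-type library, and the 3 wild-type add-back libraries lie below all ko libraries for each gene shown but Trp53.

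Of the 13 apoptosis genes 7 rose, 1 fell and 5 did not pass the test. Pmaip1 encodes Noxa, a BH3-only protein that neutralises Mcl1. It was at 84.6 to 101 CPM in wild type (median 94.0) and at 207, 188, 155, 162 and 152 CPM in the ko, with no overlap and a 1.85-fold rise (log2 0.89, SE 0.07, adjusted p = 9.2e-09). Phlda3, an inhibitor of Akt signalling, was at 42.9 to 73.3 CPM in wild type (median 54.5) and at 116, 118, 102, 94.3 and 109 CPM in the ko (1.95-fold, adjusted p = 4.2e-07). Perp, a membrane protein of desmosomes and p53-dependent death, was at 23.1 to 33.2 CPM in wild type (median 26.6) and at 53.2, 50.5, 42.0, 47.9 and 44.2 CPM in the ko (1.73-fold, adjusted p = 9.6e-07). Ko and wild-type libraries did not overlap for these 3 genes.

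Trp53inp1, a p53-induced nuclear and autophagy protein, rose 1.65-fold with overlapping libraries (adjusted p = 0.011). Apaf1, the scaffold of the apoptosome, had a log2 fold change of 0.49 (adjusted p = 0.022), and the receptor gene Eda2r 0.48 (adjusted p = 0.044). Both of these calls rested on single libraries: without ko replicate 1 the values were 0.34 for Apaf1 (adjusted p = 0.10) and 0.32 for Eda2r (adjusted p = 0.18), and without ko replicate 2 they were 0.37 for each (adjusted p = 0.090 and 0.14). Eda2r was also lost without any of wild-type replicates 3, 4, 6, 7 or 8, with log2 fold changes of 0.41 to 0.49. Fas was at 0.0579 to 0.581 CPM in wild type (median 0.196) and at 1.10, 1.16, 0.395, 0.582 and 0.465 CPM in the ko, so its rise of 1.58 (SE 0.42, adjusted p = 0.0036) rested on few reads.

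Several central death effectors did not pass the test over all libraries. The log2 fold change was 0.36 (SE 0.22, adjusted p = 0.17) for Bbc3, which encodes the BH3-only protein Puma, and 0.12 (SE 0.09, adjusted p = 0.23) for Bax. It was 0.14 for Pidd1, the PIDDosome scaffold, 0.08 for the death receptor gene Tnfrsf10b and 0.01 for the nuclease gene Aen, with adjusted p from 0.30 to 0.93. Ei24, an endoplasmic reticulum protein linked to autophagy, went the other way. It was at 127, 124, 102, 102 and 104 CPM in the ko against 128 to 154 in wild type (median 139), and fell by 0.31 (SE 0.07, adjusted p = 0.00092) with no overlap. Exons of Bax share 192 bases with those of the gene model Gm45808 on the same strand, so reads there cannot be assigned to either.

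Of the 4 repair genes only Ddb2 was called. Polk, the translesion polymerase kappa, was at 65.9, 65.5, 29.3, 29.9 and 26.7 CPM in the ko against 20.3 to 50.6 in wild type (median 30.2), and its log2 fold change of 0.50 (SE 0.24, adjusted p = 0.089) did not pass. Rrm2b, the p53-inducible ribonucleotide reductase subunit, had 0.25 (adjusted p = 0.21), and Xpc, the damage sensor of nucleotide excision repair, -0.05 (adjusted p = 0.66). Ddb2, another damage sensor of that pathway, was called at the margin, with a log2 fold change of 0.25 (SE 0.10, adjusted p = 0.049). Without any of wild-type replicates 1, 2, 3, 6, 7 or 8 or of ko replicates 1, 2 or 5 that call was lost, with values of 0.18 to 0.27. Exons of Ddb2 share 652 bases (23.8% of the gene's exonic sequence) with Acp2 on the opposite strand, and the labels do not state whether the counting used strand.

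Among the metabolism and stress genes Gdf15, a secreted cytokine of cellular stress, showed the highest fold change of the 32 genes. It was at 0.492 to 2.34 CPM in wild type (median 1.82) and at 8.00, 8.04, 7.62, 7.04 and 7.96 CPM in the ko, without overlap and 4.88-fold higher (log2 2.29, SE 0.25, adjusted p = 5.4e-07). Sesn1, a sestrin that restrains mTORC1 and oxidative stress, was at 18.7 to 23.4 CPM in wild type (median 19.9) and at 30.3, 28.9, 29.1, 29.5 and 30.2 CPM in the ko (1.45-fold, adjusted p = 2.1e-06). The paralogue Sesn2 did not follow it, at -0.02 (SE 0.12, adjusted p = 0.92). Tigar, a fructose bisphosphatase that diverts glucose to the pentose phosphate pathway, had 0.22 (adjusted p = 0.093). Ddit4, the mTORC1 inhibitor Redd1, had 0.05 (SE 0.46, adjusted p = 0.94), and the RNA-binding protein gene Zmat3 -0.20 (adjusted p = 0.29).

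Dram1, a lysosomal inducer of autophagy, was called higher in the ko over all libraries (0.87, SE 0.35, adjusted p = 0.040), yet its libraries split by depth set. It was at 23.2 and 26.4 CPM in the middle-set ko libraries and at 6.83, 8.05 and 7.21 in those of the low set. In wild type it was at 4.79 and 4.84 CPM in the middle set and at 12.1, 12.0 and 13.1 in the low set. The overall value is thus an average over opposite differences, and it was lost without any of wild-type replicates 1 to 5 (0.79 to 0.84) or without ko replicate 1 (0.63, adjusted p = 0.15) or 2 (0.53, adjusted p = 0.20).

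Wild-type and ko libraries were therefore also compared within the low and the middle set, in a fit with a mean for each group and set. In the middle set 20 of the 32 genes were higher in the ko and 3 lower (61.8% of all genes called, 29.9% higher and 31.9% lower), and in the low set 22 were higher and 2 lower (60.1% called, 29.3% higher and 30.8% lower). The same direction was called in both sets for 17 higher genes, where 19.2% of all genes tested were higher in both. These 17 were Mdm2, Cdkn1a, Ccng1, Btg2, Plk2, Ckap2, Pmaip1, Perp, Phlda3, Trp53inp1, Apaf1, Eda2r, Fas, Bbc3, Polk, Sesn1 and Gdf15. Ei24 was the single gene called lower in both, where 21.7% of all genes tested were. Cdkn1a had a log2 fold change of 1.38 in the middle set and 1.07 in the low set, and Btg2 1.70 and 1.52. The Trp53 transcript was at -0.49 in the middle set (adjusted p = 0.0033) and at -0.24 in the low set (adjusted p = 0.056).

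**Figure D3:**
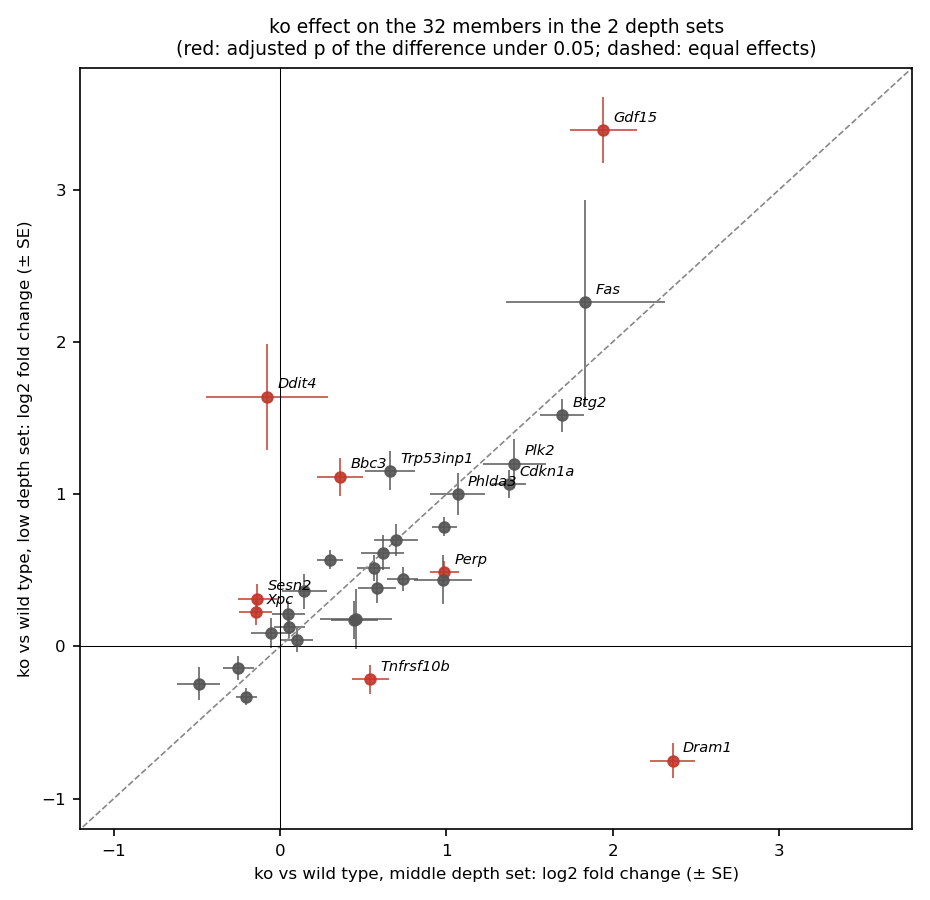
Log2 fold change of ko against wild type, with standard errors, in the middle depth set (x axis) and in the low depth set (y axis) for the 32 genes; the dashed line marks equal effects and red points have an adjusted p under 0.05 for the difference. Most genes lie near the line, Gdf15, Ddit4 and Bbc3 lie above it, and Dram1 and Tnfrsf10b lie below it.

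The difference of the 2 effects was tested in that fit, and 8 of the 32 genes passed (26.8% of all genes tested did so). Dram1 was 5.14-fold higher in the ko in the middle set and 1.68-fold lower in the low set. Tnfrsf10b had a log2 fold change of 0.54 in the middle set (adjusted p = 0.00028) and -0.22 in the low set (adjusted p = 0.057), and Perp 0.99 and 0.49. In the other direction, Gdf15 was 3.85-fold higher in the middle set and 10.5-fold higher in the low set. Bbc3 rose 1.29-fold in the middle set and 2.16-fold in the low set. Ddit4 was at -0.08 (adjusted p = 0.87) and 1.64 (adjusted p = 0.0014), Sesn2 at -0.14 (adjusted p = 0.33) and 0.31 (adjusted p = 0.0095), and Xpc at -0.15 (adjusted p = 0.21) and 0.23 (adjusted p = 0.028).

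The wild-type level differed between sets too. Ddit4 was at 111 and 127 CPM in the wild-type libraries of the middle set and at 21.2, 20.3 and 18.6 CPM in those of the low set, while the ko went from 109 and 115 to 60.7, 65.6 and 61.2. Between the wild-type libraries of the low and middle sets, which share a genotype, 4 of the 32 genes were higher and 16 lower in the low set (43.5% of all genes called). Cdkn1a (-0.62), Bbc3 (-0.94), Trp53inp1 (-1.17) and Gdf15 (-1.54) were among the 16, and Trp53 (0.35) among the 4.

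**Figure D4:**
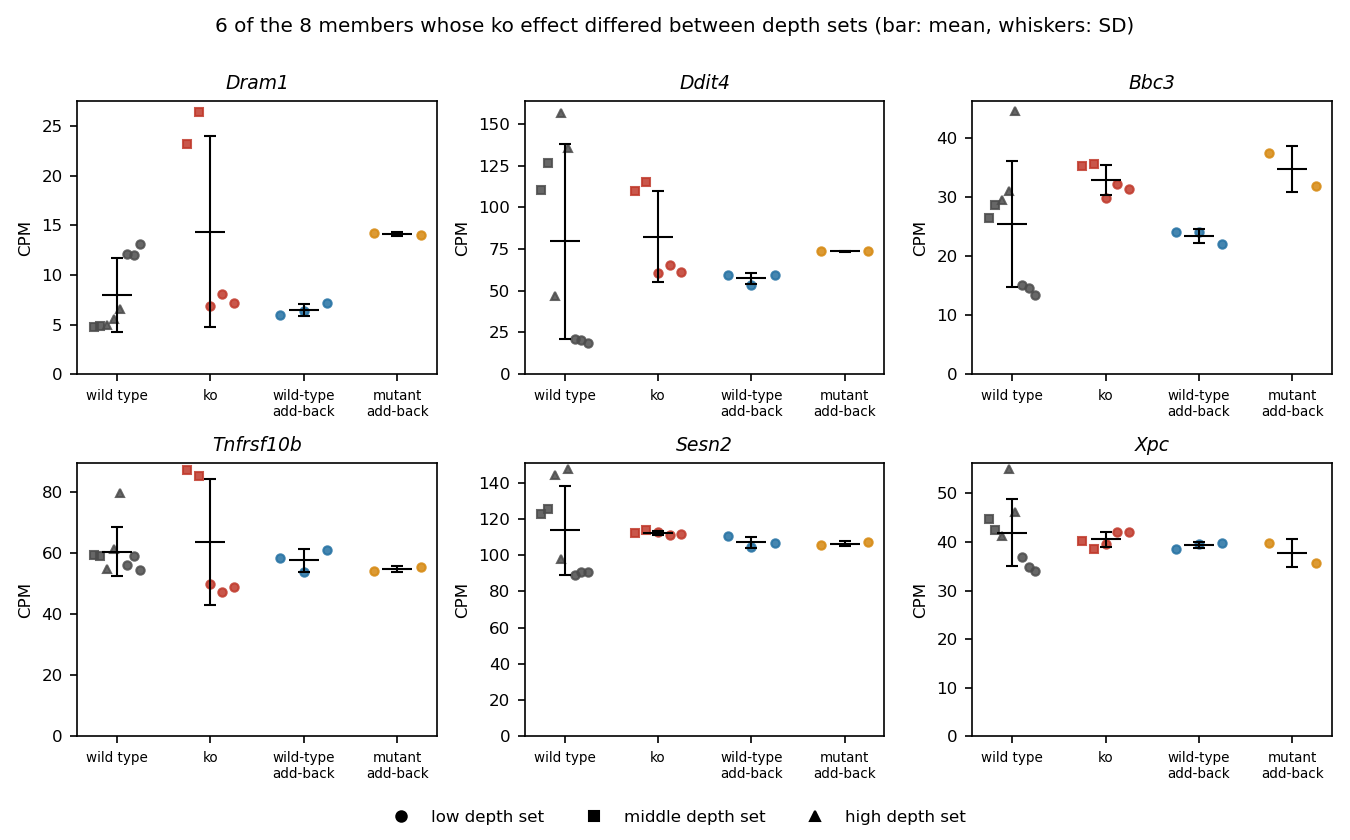
Normalised level in CPM (y axis, from 0) of 6 genes whose ko effect differed between depth sets, in each library by group (x axis); point shapes give the depth set, and the bar and whiskers give mean and SD. For Dram1 the middle-set ko libraries are at 23.2 and 26.4 CPM while the low-set ko libraries lie below the low-set wild type, and for Ddit4 and Bbc3 the low-set wild-type libraries are the lowest of all.

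Levels after add-back of wild-type Snf2h were compared with those of the ko. The ko line had passed through feeders, whereas the wild-type and wild-type add-back lines were on gelatin. Snf2h and culture history therefore cannot be told apart in this comparison or in that of ko with wild type. Against the ko, 13 of the 32 genes fell and 0 rose (45% of all genes called, 22.5% higher and 22.4% lower), with 15 genes at an unadjusted p under 0.05 and all 15 of them lower. Their median log2 fold change was -0.51, against -0.01 over all genes. This comparison and that of ko with wild type share the ko libraries. The 13 comprised Mdm2, the 5 arrest genes Cdkn1a, Ccng1, Btg2, Plk2 and Ckap2, the 5 apoptosis genes Pmaip1, Perp, Phlda3, Trp53inp1 and Apaf1, and Gdf15 and Sesn1. Over the 32 genes, the 3 add-back libraries lay below all 5 ko libraries for 18, these 13 among them, and above them for 1. Of all genes tested 26.8% lay below and 28.5% above.

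Cdkn1a was at 44.8, 45.0 and 44.1 CPM after wild-type add-back and fell by 1.03 (SE 0.27, adjusted p = 0.0050). Btg2 was at 63.7, 65.7 and 60.7 CPM and fell by 1.31 (SE 0.19, adjusted p = 2.9e-05). These libraries lay within the wild-type range for both genes. Gdf15 was at 1.34, 2.21 and 1.21 CPM and fell by 2.27 (SE 0.37, adjusted p = 8.3e-05), also into the wild-type range. Mdm2 was at 116, 122 and 119.7 CPM and fell by 0.71 (SE 0.20, adjusted p = 0.0077). The calls for Apaf1 (-0.57, adjusted p = 0.047) and Trp53inp1 (-0.79, adjusted p = 0.040) were each lost without ko replicate 1 or 2 or without any single add-back library, with values of -0.42 to -0.64 and -0.64 to -0.83. Trp53 itself was at 480.4, 434 and 483 CPM, with a log2 difference of 0.28 from the ko (SE 0.17, adjusted p = 0.18).

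Against wild type the same add-back libraries had 2 genes lower and 0 higher (1.6% of all genes called). Pmaip1 was at 66.5, 63.9 and 64.5 CPM, below all 8 wild-type libraries, and fell by 0.52 (SE 0.09, adjusted p = 0.0055). Sesn1 was at 16.7, 15.0 and 16.4 CPM, also below all of them, and fell by 0.35 (SE 0.08, adjusted p = 0.038). The Pmaip1 call was lost without add-back replicate 2 (-0.51, adjusted p = 0.063), and that of Sesn1 without any single add-back library or wild-type replicate 6 (-0.30 to -0.38). Within the low set, which holds the 3 add-back libraries and 3 wild-type libraries, the fit by group and set called 8 of the 32 genes higher and 4 lower (22.5% of all genes called). Cdkn1a (0.48), Btg2 (0.48), Bbc3 (0.70), Trp53inp1 (0.67), Eda2r (0.65), Ddit4 (1.52), Gdf15 (1.16) and Zmat3 (0.34) were above the low-set wild type, and Pmaip1 (-0.48), Sesn1 (-0.37), Perp (-0.38) and Dram1 (-0.94) below it. So the return of Cdkn1a, Btg2 and Gdf15 to the wild-type range held against all 8 wild-type libraries and not against the 3 of the same set.

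The mutant add-back carries the ATPase mutant in place of wild-type Snf2h. Against the ko, 0 of the 32 genes were called by edgeR's quasi-likelihood test (0.322% of all genes called, 0.114% higher), 3 had an unadjusted p under 0.05, all higher, and DESeq2 called 0. In the fit by group and set, against the 3 ko libraries of the low set, 3 genes were higher (14.6% of all genes called): Pmaip1 (0.21), Perp (0.41) and Dram1 (0.94). In a fit of the low set alone, which holds both mutant libraries and 3 ko libraries, 10 of the 32 genes were called, all 10 higher (25.4% of all genes called, 12.9% higher). Cdkn1a was among them at 0.27 (adjusted p = 0.0026), the opposite sign to its value over all libraries. The absence of calls over all libraries thus did not hold within the low set. In that fit all groups shared 1 estimate of the spread, while the 2 mutant libraries differed by a chi-square of 14.0 per gene. The ko libraries of the set differed far less, so its adjusted p may understate the spread of the mutant group. Btg2 was at 158 and 147 CPM in the mutant add-back, Cdkn1a at 76.4 and 84.9, Pmaip1 at 185 and 177, Gdf15 at 8.04 and 6.72 and Sesn1 at 30.0 and 29.4. For these 5 genes both libraries lay above all 8 wild-type libraries. Over the 32 genes both lay above all of them for 12 and below all of them for 2, as they did for 23.2% and 23.8% of all genes tested. For Cdkn1a the log2 difference from the ko was -0.17 with a standard error of 0.30, and for Gdf15 -0.07 with 0.36, so an absent call does not show equal levels.

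Set directly against each other, the wild-type add-back had 9 of the 32 genes lower than the mutant and 0 higher (37% of all genes called, 18.6% higher and 18.4% lower). Gdf15 fell by 2.21 (SE 0.43, adjusted p = 0.00057), Pmaip1 by 1.48 (SE 0.12, adjusted p = 4.3e-08), Perp by 1.28, Btg2 by 1.27, Plk2 by 1.17, Phlda3 by 1.09, Sesn1 by 0.89 and Ckap2 by 0.47, with adjusted p of 0.0020 or less for each. Cdkn1a was at -0.85 (adjusted p = 0.046), a call lost when any single add-back library was left out (-0.76 to -0.91). The mutant libraries also expressed less Smarca5 than the wild-type add-back (log2 difference 0.56, SE 0.17, adjusted p = 0.018), and they alone of the add-back lines had passed through feeders, so the mutation cannot be told apart from dose and culture history. Against wild type the mutant add-back had 10 genes higher and 2 lower (45.5% of all genes called, 22.1% higher and 23.5% lower), the 2 being Ei24 (-0.31) and Zmat3 (-0.61). Both of these calls were lost without mutant add-back replicate 1 (adjusted p = 0.11 for Ei24 and 0.17 for Zmat3) or without replicate 3 (0.083 and 0.16). The Cdkn1a call against wild type was lost without either library too (0.88, adjusted p = 0.089, and 0.73, adjusted p = 0.14), and that of Bax without replicate 1 (0.31, adjusted p = 0.13).

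The wider p53 pathway was read from lists of other genes. In ko against wild type the background for each list is again the 55% of all genes called, 26.8% higher and 28.2% lower. Of 28 further p53 targets tested, 12 rose and 3 fell in the ko, so 53.6% were called, a share near that background. The arginine synthesis enzyme gene Ass1 rose 1.02 on the log2 scale (SE 0.12, adjusted p = 1.1e-06) and Trp53i13 rose 0.89 (adjusted p = 1.2e-06). Steap3, a ferrireductase, fell by 0.89 (adjusted p = 1.1e-05) and the ephrin receptor gene Epha2 by 0.65 (adjusted p = 0.00042). Among 22 regulators of p53 tested, 3 rose and 11 fell (63.6% called). Those higher were Mdm4 (0.60, adjusted p = 0.0021), which inhibits p53 together with Mdm2, the ubiquitin ligase gene Rchy1 (0.42, adjusted p = 0.0011) and Cdkn2a (0.52, adjusted p = 0.0040), the locus of Arf and p16, which was at 0.19 in the low set (adjusted p = 0.32). The checkpoint kinase genes Chek2 (-0.67, adjusted p = 1.1e-06) and Chek1 (-0.35, adjusted p = 0.00014) and the damage adaptor gene Trp53bp1 (-0.27, adjusted p = 0.00027) were lower. Reads cannot separate the Cdkn2a transcripts here.

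Of 12 Bcl2 family genes tested, 4 rose and 3 fell (58.3% called), near the 55% of all genes. The BH3-only gene Hrk rose by 1.45 (SE 0.14, adjusted p = 6.8e-08) and the survival gene Bcl2l2 by 0.45, whereas the survival gene Mcl1 fell by 0.44 (SE 0.06, adjusted p = 3.8e-06) and the BH3-only gene Bcl2l11, which encodes Bim, by 0.46. Of 18 mitotic genes that p53 and p21 are known to repress, 4 rose and 3 fell (38.9% called). The phosphatase gene Cdc25c rose by 0.80 (adjusted p = 2.6e-09) and the kinase gene Aurkb by 0.46 (adjusted p = 1.2e-07), while the kinesin gene Kif20a fell by 0.29 (adjusted p = 0.0019). The list thus had no shared direction, with a median of 0.10. Genes of the integrated stress response, a translation control pathway that also induces Gdf15, Sesn2 and Ddit4, had 9 of 16 higher and 0 lower (56.2% called, so that the direction alone differed from all genes), among them the transcription factor genes Atf3 (1.72, adjusted p = 2.6e-06) and Atf4 (0.62, adjusted p = 3.1e-07). The summed level of this list was 2541 to 2658 CPM in the ko and 2397 to 2797 in the mutant add-back, against 1808 to 2418 in wild type and 1943 to 2007 in the wild-type add-back. It moved with the p53 targets across the groups, and its part in their levels was not tested.

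Markers of other cells were read beside these results. Of 24 fibroblast markers tested, 17 were higher in the ko and 3 lower (83.3% called, against 26.8% higher and 28.2% lower of all genes). Fbln2 rose by 3.46 on the log2 scale, Col1a2 by 3.09 and Thbs1 by 2.33. The 3 lower were Pdgfrb (-0.89), Col6a2 (-0.995) and Fn1 (-0.64). In the low set alone Col6a2 (0.19) and Fn1 (0.032) had the opposite sign and were not called. With wild-type add-back 0 of the 24 were higher and 17 lower than in the ko (22.5% higher and 22.4% lower of all genes). The mutant add-back had 18 higher and 3 lower than wild type (22.1% higher and 23.5% lower of all genes). Against the ko it had 0 higher and 1 lower (0.114% higher and 0.208% lower of all genes). Most of these markers thus moved with the p53 targets across the groups, and their part in those levels was not tested. Their summed level was 1276 to 1508 CPM in the ko and 879 to 1195 in the mutant add-back. It was 1031 to 2500 CPM in wild type and 1304 to 1586 in the wild-type add-back. Across the groups the sum thus did not follow the direction of most of the markers. Within the low set it was 1276 to 1298 CPM in the ko against 1031 to 1081 in wild type, and within the middle set 1436 to 1508 against 1754 to 1863. The defining fibroblast gene Lum was at 0 in every ko library and at 0 to 0.032 CPM in wild type, and Col3a1 was at 0.76 to 1.47 CPM in the ko and 0 to 0.31 in wild type. Endoderm markers split by set as Dram1 did: their sum was 14595 to 15620 CPM in the middle-set ko against 3398 to 3549 in the middle-set wild type, and 4285 to 4504 in the low-set ko against 6252 to 6272 in the low-set wild type. All 14 endoderm genes tested were called for a lower ko effect in the low set than in the middle set, as were 13.2% of all genes. In bulk RNA, fewer cells of a type and less RNA per cell cannot be told apart, and the part of endoderm-like cells in the Dram1 result was not tested. Of 14 ES cell markers tested, 5 were higher in the ko and 5 lower (71.4% called). Among the higher were Tbx3 (0.81) and Klf4 (0.50), and among the lower Klf2 (-1.33) and Utf1 (-0.49). Their sum was 6471 to 7120 CPM in wild type and 6613 to 8051 in the ko. Within the low set it was 7837 to 8051 CPM in the ko against 6950 to 7028 in wild type. Within the middle set it was 6613 to 6617 against 6901 to 6905.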

How the data were processed

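PolyA RNA was measured in 18 libraries from a stranded mRNA kit, per the labels' protocols. The authors deposited whole-number counts per gene with exonic lengths. The submitters' processing notes name bcl2fastq 2.17, STAR and the build mm10 (GRCm38), while for the counting step neither tool nor use of strand is stated there. Samples were grouped by title and genotype label. Counts were tested in R 4.3.3 with edgeR 4.0.16: filterByExpr with a count minimum of 10, TMM scaling, a mean per group over all 18 libraries, the robust two-sided quasi-likelihood test, and Benjamini-Hochberg adjustment over all 14901 genes tested, called at 0.05, for 6 comparisons. Scripts were tested on simulated data. CPM and RPKM use TMM library sizes. Of the 24116 genes, 9 lack a symbol. Totals of 15.3 to 37.0 M counts limit precision for genes such as Fas.

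Depth sets were cut at 20 and 30 M counts after the totals were seen, and the fit by group and set was likewise added after seeing the data. Alternatives were other scaling, filters, DESeq2 1.42.0, the groups compared alone, a depth set term, single sets, a replicate block and leaving out each library. All 32 genes are reported, and of each other list up to 3 genes per direction with the smallest adjusted p in the ko, of which 1 is not reported here. The genes and lists were chosen with earlier results of these data known.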

Additional observations from a re-analysis of the deposited data

Results flagged for a closer look

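In wild type, replicate 5 stood apart for 2 genes, with Plk2 at 55.5 CPM and Tnfrsf10b at 79.9 CPM. These were 2 of 64 groups of 4 to 10 libraries checked for an extreme value, and chance alone marks about 1 in 20.

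The ko effect, as the low-set minus the middle-set log2 fold change in a fit by group and depth set, differed for 8 of the 32 genes by edgeR's quasi-likelihood test. It was higher in the low set for Ddit4 (1.72, adjusted p = 0.026), Gdf15 (1.45, adjusted p = 0.0018), Bbc3 (0.75, adjusted p = 0.0046), Sesn2 (0.45, adjusted p = 0.034) and Xpc (0.37, adjusted p = 0.041). It was lower in the low set for Dram1 (-3.11, adjusted p = 4.0e-11), Tnfrsf10b (-0.76, adjusted p = 0.00056) and Perp (-0.50, adjusted p = 0.0022). Over all genes 26.8% differed in this way.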

How the results depend on the processing

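Without 1 library at a time, the number of the 32 genes called was 14 to 20 for ko against wild type, 11 to 15 for wild-type add-back against ko, 0 in every case for mutant add-back against ko, 8 to 9 between the add-backs, 0 to 2 for wild-type add-back against wild type and 8 to 13 for mutant add-back against wild type. Over all genes those ranges were 7425 to 8247, 5271 to 6519, 4 to 143, 3014 to 4684, 44 to 260 and 3675 to 6912. In the low set alone, mutant add-back against ko had 10 of the 32 genes called and 3683 over all genes, and the add-backs 21 and 9744. Wild-type add-back against wild type had 19 and 4786, and mutant add-back against wild type 25 and 9655. In that order, the shares of all genes tested in the low set were 25.4%, 67.3%, 33% and 66.6%. There, signs differed from those over all libraries, for ko against wild type, at Tnfrsf10b -0.22, Xpc 0.22, Sesn2 0.31, Dram1 -0.75, Col6a2 0.19, Fn1 0.032, Col4a2 -0.26, Col4a1 -0.39 and Foxa2 -0.64. They also differed for wild-type add-back against ko at Tnfrsf10b 0.25, for mutant add-back against ko at Mdm2 0.15, Cdkn1a 0.27, Btg2 0.23, Ddit4 0.24 and Dram1 0.94, for mutant add-back against wild type at Sesn2 0.24 and Ddit4 1.88, and for wild-type add-back against wild type at Cdkn1a 0.49, Ccng1 0.30, Bbc3 0.70, Apaf1 0.22, Trp53inp1 0.67, Polk 0.45, Sesn2 0.25, Ddit4 1.52 and Zmat3 0.34. In the middle set alone Prkab1 was 0.12. With the depth set as a term, 17 genes were called between the add-backs, 8 for wild-type add-back against wild type (1532 over all genes) and 22 for mutant add-back against wild type, with 480 over all genes for mutant add-back against ko. For the comparisons with 17 and 22, the count over all genes moved by no more than 1.5 times with that term. Signs differed there at Cdkn1a 0.55, Trp53inp1 0.57, Polk 0.57 and Zmat3 0.32 for wild-type add-back and Ddit4 1.43 for mutant add-back, each against wild type. With the 2 groups alone, 20 genes (8510 over all) were called between the add-backs, 1 for wild-type add-back against wild type, and 15 over all genes for mutant add-back against ko. DESeq2 called 293 genes for mutant add-back against ko and 479 for wild-type add-back against wild type. With no filter on low counts the latter had 1 of the 32. The cause of these differences was not tested. Of 4539 values of named genes under the alternatives, 180 changed sign with neither value called, and these are counted as unchanged.

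Replicate numbers did not pair the libraries: same-numbered ko and wild-type deviations correlated at -0.29 to 0.21, and 1 of 5 ko libraries correlated best with its own number. With a replicate block 20 genes (9119 over all) were called between the add-backs and 1054 genes over all for wild-type add-back against wild type, and no other count moved by over 1.5 times. The block ended the ko calls of Ccng1, Apaf1, Eda2r and Ddb2 (0.39, 0.30, 0.20 and 0.22), the Sesn1 call of wild-type add-back against wild type (-0.29), and the calls of Ckap2, Bax and Ei24 for mutant add-back against wild type (0.34, 0.44 and -0.36).

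Depth limits Fas and Gdf15 most. The high set holds wild type alone, so its depth and genotype cannot be told apart, and the 3 and 2 add-back libraries set the precision of their comparisons.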
